A study of Mus musculus with 8 samples.

Results

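The genes described here are 33 genes of protein folding and stress in the endoplasmic reticulum (ER), out of 18194 genes with a named probe set on the tumour arrays. A gene was taken by its symbol in the platform annotation, which gave 76 of 45101 probe sets on the tumour arrays and 67 of 22690 on the arrays of the adenovirus samples. All 67 are among the 76, and every gene had at least 1 probe set on both kinds of array. The rule for the genes used no measured value, but they were chosen with earlier results of these data known. In the text they are grouped by role as luminal chaperones and co-chaperones (10 genes), disulfide isomerases with their relatives (5), degradation and translocation (8), stress sensors and transcription factors (5) and the branch run by Atf4 (5).

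Secreted and membrane proteins fold in the ER with the help of chaperones such as the Hsp70 protein BiP, the product of Hspa5, and of isomerases that form disulfide bonds. When unfolded protein builds up, the sensors IRE1 (Ern1), PERK (Eif2ak3) and ATF6 (Atf6) start the unfolded protein response: IRE1 splices the mRNA of Xbp1, ATF6 is cut to a transcription factor, and PERK slows translation while favouring Atf4. ATF6 and XBP1 turn on chaperones and the machinery that sends misfolded protein to degradation, and ATF4 turns on genes of amino acid supply and Ddit3. The hepatocyte, which secretes most plasma proteins, has an extensive ER.

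All samples came from mice without p53 on a C57BL/6J background. The tumour set held 6 hepatocellular carcinomas (HCC), 1 tumour per array, from HBs transgenic mice 12 to 15 months old, 3 with the telomerase RNA (mTERC+) and 3 without it (mTERC-). The adenovirus set held 2 arrays of liver collected 48 hours after an intravenous dose of 2e+10 plaque-forming units, each with RNA pooled from 3 mice: one virus carried TRF2DBDM, an altered TRF2 (a protein that binds telomeres), while the control virus carried GFP. The sources used here do not give the line or promoter of the HBs transgene, nor the share of liver cells that took up virus. There was no tumour without HBs and no liver without virus. Each adenovirus group was thus 1 array of pooled RNA with no spread between mice, so its values carry no error and no test was made. Values are MAS5 signals, a probe set brightness on a linear scale. The 2 sets were scaled on different arrays, so levels are compared within a set only. Log2 differences and ratios were taken after 32 had been added to each signal, which shrinks the change of dim genes.

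The labels give hepatocytes as the tissue, and the albumin gene Alb had a signal of 38450 to 53965 in the tumours and 8672 and 11361 in the livers. The median signal was 54.5 to 59.4 on 5 tumour arrays and 75.1 on mTERC- tumour 2, whose 3'/5' ratio of the Gapdh control was 13.8 against 0.983 to 1.18 on the others. Signals of the 5' probe set for 18S, another control, were 318.5 and 349 in mTERC- tumours 2 and 3, and the remaining tumours had 11010 to 27810. In whole tissue RNA, fewer cells of a type and less RNA per cell cannot be told apart.

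The promoter windows were searched for known elements of the ER stress response. The genes were chosen for known roles in that response and the elements from textbook knowledge. The counts below are thus a description and not an independent check. The ER stress response element (ERSE), a site of NF-Y with ATF6 or XBP1, has the letters CCAAT, then 9 free bases, then CCACG. It was searched on both strands in the window from 250 bases before to 50 bases after each RefSeq start (GRCm38.p6), which was at hand for 29 of the 33 genes (not Atf6, Derl1, Hyou1 and Manf). The windows of 9 of these 29 genes held it, against 37 of 27025 genes with a window, or 0.137%, the 9 included, and 39 of 32851 windows (0.119%). Whole windows are shown for Hspa5, the usual marker of the response, and for Creld2, Derl3 and Syvn1. By brightest probe sets, Creld2, Derl3 and Syvn1 differed most in the adenovirus pair among the genes with this element. A second Hspa5 probe set differed more (log2 ratio -1.80), and Derl3 reached its array's median only in the GFP pool. The full match is in capitals, on the gene's own strand.
Hspa5: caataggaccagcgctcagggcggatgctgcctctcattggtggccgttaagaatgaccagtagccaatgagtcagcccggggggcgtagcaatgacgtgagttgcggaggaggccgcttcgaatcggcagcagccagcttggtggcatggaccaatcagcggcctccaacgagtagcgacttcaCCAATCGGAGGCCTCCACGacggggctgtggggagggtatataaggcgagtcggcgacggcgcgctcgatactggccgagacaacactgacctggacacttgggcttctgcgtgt
Creld2: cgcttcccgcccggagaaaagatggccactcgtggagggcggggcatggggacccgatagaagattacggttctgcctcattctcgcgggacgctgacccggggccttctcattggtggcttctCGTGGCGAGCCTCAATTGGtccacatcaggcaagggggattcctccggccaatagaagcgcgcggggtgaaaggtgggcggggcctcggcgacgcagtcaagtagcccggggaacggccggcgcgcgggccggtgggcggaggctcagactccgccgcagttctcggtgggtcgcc
Derl3: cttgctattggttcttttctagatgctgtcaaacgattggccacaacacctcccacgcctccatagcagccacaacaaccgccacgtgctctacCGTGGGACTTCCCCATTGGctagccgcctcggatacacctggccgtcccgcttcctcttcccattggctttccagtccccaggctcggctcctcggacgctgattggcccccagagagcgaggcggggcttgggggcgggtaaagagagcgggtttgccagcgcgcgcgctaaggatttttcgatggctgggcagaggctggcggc
Syvn1: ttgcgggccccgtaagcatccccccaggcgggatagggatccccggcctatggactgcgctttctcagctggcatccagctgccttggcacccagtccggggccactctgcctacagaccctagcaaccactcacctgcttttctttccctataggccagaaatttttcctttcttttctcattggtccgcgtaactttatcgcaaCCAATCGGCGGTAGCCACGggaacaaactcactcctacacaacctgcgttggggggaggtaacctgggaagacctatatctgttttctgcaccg
These windows lie at chr2:34771840-34772139 (+ strand), chr15:88819396-88819695 (+ strand), chr10:75893148-75893447 (+ strand) and chr19:6046326-6046625 (+ strand). The element begins at base -65 from the start in Hspa5, -126 in Creld2, -156 in Derl3 and -44 in Syvn1. In Creld2 and Derl3 it reads on the opposite strand, so the capitals there begin with the reverse complement.

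The other 5 genes with the element were Hsp90b1, which has it at 2 places, Calr, Canx, Dnajc3 and Pdia6. Their matches follow, read on the element's strand with its fixed letters in capitals, to show how free the letters between the 2 blocks are.
Hsp90b1: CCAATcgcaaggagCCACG
Hsp90b1: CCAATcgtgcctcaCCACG
Calr: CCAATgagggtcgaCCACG
Canx: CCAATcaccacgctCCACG
Dnajc3: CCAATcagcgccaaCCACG
Pdia6: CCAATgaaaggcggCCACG
The shorter element ERSE-II, ATTGG and CCACG with 1 free base between them, was in the windows of 2 of the 29 genes, against 12 of 27025 genes (0.0444%). Both matches are shown with the fixed letters in capitals.
Dnajb11: ATTGGcCCACG
Herpud1: ATTGGgCCACG
The core of the XBP1 element TGACGTGG was in 0 of the 29 and in 193 of 27025 genes (0.714%). The element of ATF4 with C/EBP partners, searched as TGATGCAAT, was also in 0 of the 29 windows and in 60 of 27025 genes (0.222%). A looser form, TGATGNAA, was in 4 windows, those of Asns, Chac1, Trib3 and Herpud1, against 1219 of 27025 genes (4.51%). The 2 ATF4 forms overlap, so the second count holds the first. Such matches describe the letters of the window and were not tested for binding.

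**Figure D1:**
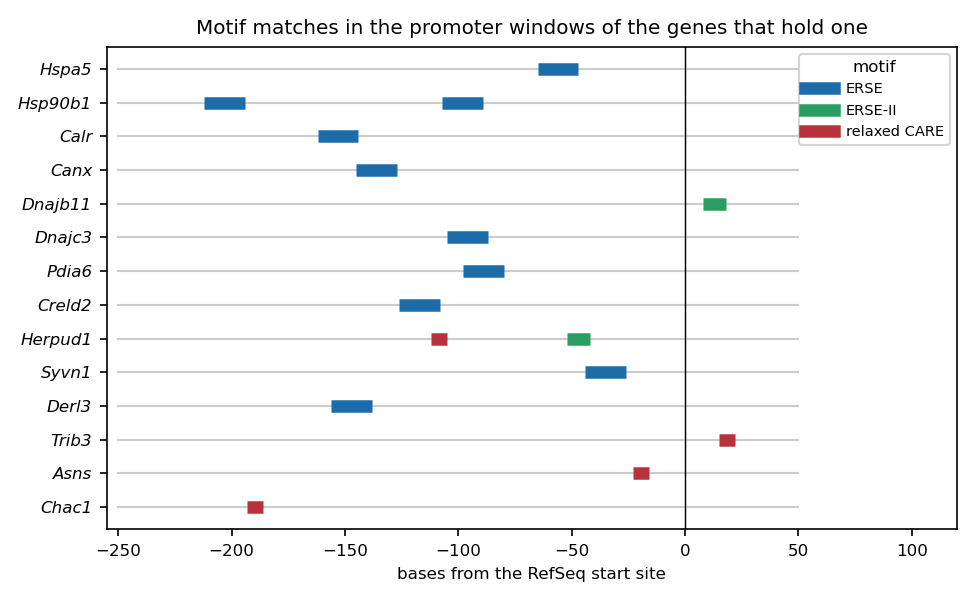
Position of each ERSE, ERSE-II and looser ATF4 motif match (coloured bars) in the promoter windows of the 14 genes that hold one, in bases from the RefSeq start site (vertical line). The ERSE matches lie upstream, with first bases from -212 in Hsp90b1 to -44 in Syvn1, and the looser ATF4 motif lies in Asns, Chac1, Trib3 and Herpud1.

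The adenovirus pair asked what TRF2DBDM did in p53-null liver relative to GFP. Genes of folding, degradation and translocation were mostly lower in the TRF2DBDM pool than in the GFP pool. Apart from Ern1 (higher) and Asns (lower), the sensors and the Atf4 branch had log2 ratios between -0.20 and 0.15 by their brightest probe sets. Other probe sets reached -0.68 in Xbp1 and 0.75 in Trib3. All 33 genes were bright enough to compare, which took a signal no lower than the median of its array in 1 pool or both. Of them 23 were lower with TRF2DBDM and 10 higher, and the median log2 ratio was -0.30, against a median of 0.02 over the 7789 genes compared, of which 47.9% were lower. At least 2-fold apart in either direction were 6 of the 33 genes, where 7.52% of all compared genes were. These 6 were all lower, where 2.9% of all genes were, and 0 of the 33 were at least 2-fold higher, where 4.62% of all were.

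The 6 genes at least 2-fold lower were Sdf2l1, Manf, Pdia4, Creld2, Syvn1 and Derl3. Sdf2l1, a partner of the BiP cycle, had a signal of 158 in the TRF2DBDM pool and 483 in the GFP pool, a log2 ratio of -1.44, or 2.71-fold lower. Manf, a secreted ER protein that binds BiP, had 1013 against 2365.5, or 2.29-fold lower. Both lay well above the array medians of 52.5 and 46.1 in both pools. Pdia4, a disulfide isomerase, had 132 against 347, or 2.31-fold lower. Creld2, an ER protein with isomerase-like activity, had 461 against 1075, or 2.25-fold lower. The difference in each of these genes is seen in 1 array per pool, so its size cannot be set against a spread between mice. Syvn1 encodes HRD1, the ubiquitin ligase of ER-associated degradation, and had 105 against 298, or 2.41-fold lower. Derl3, a channel protein of that degradation route, had 15.8 against 73.2. Its TRF2DBDM value lies under that array's median, so it was compared only through the GFP pool, where it is high, and had to be lower with TRF2DBDM. Ern1 was likewise compared only through the TRF2DBDM pool. Of the 31 genes at or over the median in both pools, 22 were lower and 5 at least 2-fold lower, where 2.31% of the 6575 such genes were. With the larger of the other pseudocounts tried, the count of genes at least 2-fold lower was 3 (Creld2, Manf and Sdf2l1), and the share of all genes fell likewise, from 2.90% to 1.03%.

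For the larger chaperones the size of the difference varied with the probe set. Hspa5 had 3152 in the TRF2DBDM pool and 4413 in the GFP pool, a log2 ratio of -0.48 by its brightest probe set. A second Hspa5 probe set had 284 against 1070 (log2 ratio -1.80), so the probe sets of this gene disagree on the size but not on the side. With the mean of all probe sets of a gene, Hspa5 had -1.14 and was among the 6 genes at least 2-fold lower, while Pdia4 had -0.67 and was not. Hyou1, a large Hsp70-type chaperone that exchanges the nucleotide of BiP, had 234 against 324 (-0.42), and a dimmer probe set had 21.6 against 105 (-1.35). Dnajb11 and Dnajc3, J-domain partners of BiP, had log2 ratios of -0.78 and -0.42. Other probe sets of Dnajc3, all under the array medians in both pools, had 0.12, 0.34, -0.01 and 0.16. The third J-domain gene, Dnajb9, ran the other way, at 309.5 against 249 (0.28). Hsp90b1, the ER form of Hsp90, had a ratio of -0.30, and its second probe set was on the other side (0.21). The lectin chaperones Calr and Canx, which hold glycoproteins, had -0.20 and 0.09, and the ratio of Canx was 0.25 and 0.29 by its other probe sets.

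Among the isomerases, Pdia6 had 604 in the TRF2DBDM pool against 908 (log2 ratio -0.56) and Pdia3, which works with the lectin chaperones, 1052 against 1299 (-0.30). P4hb, the archetypal isomerase, had 3534 against 3449.6 (0.03). In the degradation and translocation group all 8 genes were lower, with a median of -0.47. Derl1 had 677 against 1086 (-0.66), and its other 3 probe sets had -0.29, -0.55 and -0.87. Sec61b, a subunit of the translocation channel, had 968 against 1418 (-0.54). Herpud1, which organises the degradation complex, had -0.40 by the probe set brightest on this array and -0.15 by the other. Edem1, which picks misfolded glycoproteins, had -0.20. Sel1l, the scaffold of HRD1, had -0.10 by its brightest probe set, with the other 3 at -0.79, -0.60 and 0.29. Derl2 had -0.05, and 0.55 by a dim probe set. The group thus spans Derl2, nearly equal in both pools, to Syvn1.

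The sensors had no common side, with 3 of 5 higher. Ern1 had 114 in the TRF2DBDM pool and 44.2 in the GFP pool, a log2 ratio of 0.94, which was the highest of the 33 genes. Its GFP value lies just under that array's median, and the 2 other Ern1 probe sets, both dim, had 0.05 each. Eif2ak3 had 124 against 147 (-0.20) and Atf6 78.1 against 72.2 (0.08). Xbp1 had 2692 against 2950.0 (-0.13) by its brightest probe set and 1932 against 3117 (-0.68) by the next. Its dimmer probe sets had 642 against 859 (-0.40) and 134 against 152 (-0.14). The arrays do not separate spliced from unspliced Xbp1 in these values, since the files give no isoform for a probe set. Atf4 had 807 against 730.2 (0.14).

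In the Atf4 branch, 4 of 5 genes were slightly higher. Ddit3, which encodes the transcription factor CHOP, had 270.2 against 240.5 (log2 ratio 0.15). Trib3, a pseudokinase induced by CHOP and ATF4, had 150.1 against 142 (0.07), and 0.75 by a second probe set. Chac1, an enzyme that breaks down glutathione, had 216 against 195 (0.13), and Ppp1r15a, the phosphatase subunit GADD34 that ends the PERK signal, 229 against 216 (0.08). Asns, asparagine synthetase, was the exception at 214 against 330.3 (-0.56). Its second probe set had -0.90. By the brightest probe sets, and apart from Asns, these ratios are small beside those of Sdf2l1, Syvn1 and Pdia4.

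**Figure D2:**
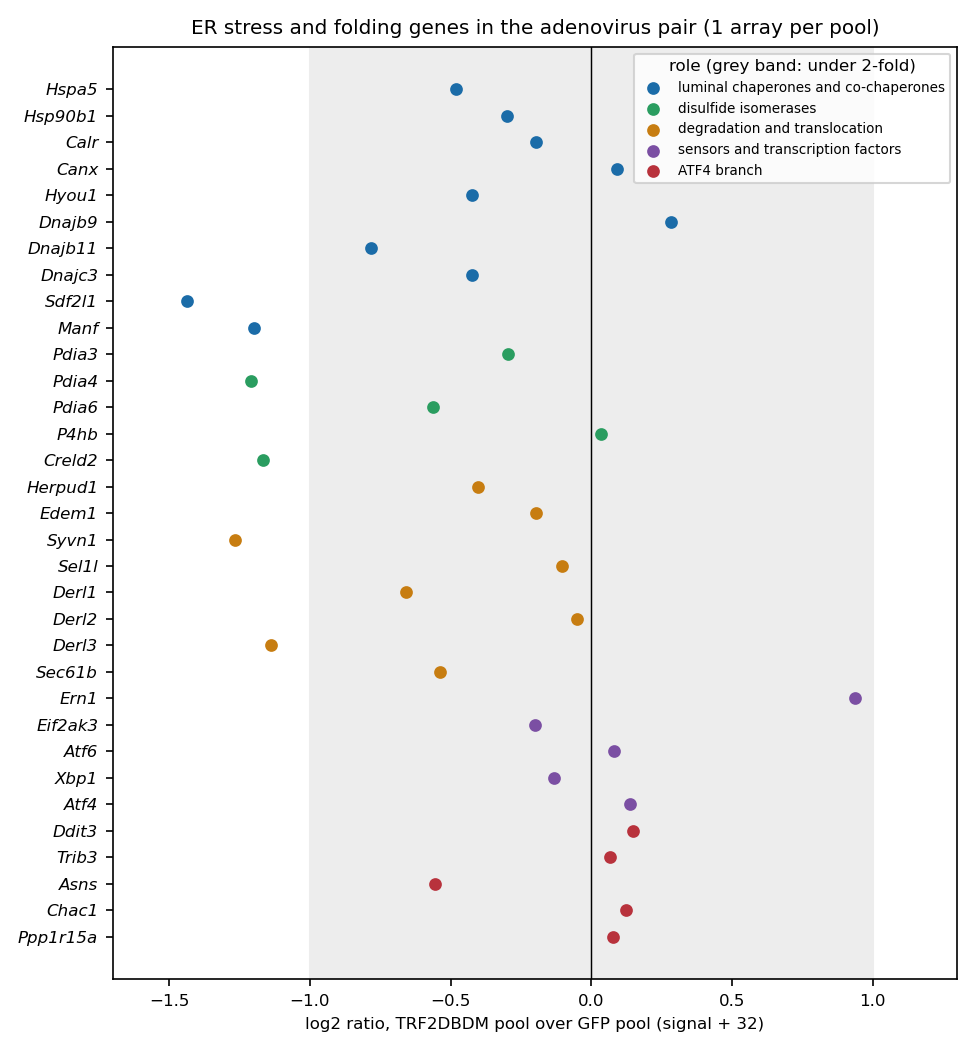
Log2 ratio of the TRF2DBDM pool over the GFP pool for each of the 33 genes, coloured by role, with the band under 2-fold in grey. Sdf2l1, Manf, Pdia4, Creld2, Syvn1 and Derl3 lie left of the band, and the Atf4 branch apart from Asns lies close to 0.

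Scaling each array to its median in place of the deposited scale moved the median of all compared genes from 0.02 to -0.09. Under that scale 28 of the 33 genes were lower, and Canx, P4hb, Atf6, Trib3 and Ppp1r15a, all within 0.1 of 0, changed side. The same 6 genes stayed at least 2-fold lower with median centring, with quantile normalization and with a pseudocount of 1.

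By promoter element, 8 of the 9 genes with an ERSE were lower with TRF2DBDM (median log2 ratio -0.48), where 47.9% of all compared genes were. Of the 20 genes with a window but no ERSE 12 were lower, with a median of -0.12. All 9 fall under the chaperones, the isomerases or degradation and translocation. The 20 include the Atf4 branch and the sensors other than Atf6, roles with medians of 0.08 each over all their genes. Element and role were thus not told apart. Among genes outside the 33, 6 with an ERSE were compared, 5 of them lower, with a median of -0.30. These counts are a description of 1 pair of arrays and include Derl3, which was compared only through the GFP pool. Sides are those of the brightest probe sets. A second probe set of Hsp90b1 (0.21) and some dim ones of Dnajc3 (up to 0.34) were higher with TRF2DBDM. Other probe sets of Calr (-0.24 and -0.23), Hspa5 (-1.80) and Pdia6 (-0.45) were lower. Sdf2l1 and Pdia4, with no exact ERSE in the window, were as far apart between the pools as Creld2 and Syvn1.

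Other genes of the ER were taken from lists of related functions (145 of 165 symbols were on the tumour arrays). In the pair 82 of those compared were lower and 46 higher, with a median log2 ratio of -0.12. The share lower was 64.1%, where 47.9% of all compared genes were lower. At least 2-fold lower were 4 and at least 2-fold higher 3, where 2.9% and 4.62% of all compared genes were. These 2-fold counts do not stand out from that background. Lists differed: 15 of 17 genes of N-glycosylation and the calnexin cycle were lower (median -0.46), as were 14 of 18 of translocation and signal peptidase (-0.28). Of the other genes of folding and oxidation 14 of 25 were lower (-0.02), of ER-associated degradation 11 of 20 (-0.11), of regulators 10 of 16 (-0.04) and of ATF4 targets in amino acid supply 18 of 32 (-0.10). The 4 lowest were Phgdh, the first enzyme of serine synthesis, at 292 against 953, the prolyl isomerase gene Fkbp11 at 122 against 402, the translation repressor gene Eif4ebp1 at 599 against 1628 and the channel gene Sec61a1 at 1212 against 2538. The 4 highest were Cth, an enzyme of cysteine synthesis, at 949 against 146, the hormone gene Fgf21 at 123 against 31.6, the stress transcription factor gene Atf3 at 174 against 61.6 and the ubiquitin ligase gene Marchf6 at 406 against 197. The ATF4 targets thus include genes at both ends, Cth higher and Phgdh and Eif4ebp1 lower. Fgf21 lay under the GFP array's median of 46.1, so it was compared only through the TRF2DBDM pool and had to be higher there.

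Markers of cell types also differed between the pools. All 9 compared hepatocyte markers were higher in the TRF2DBDM pool, with a summed signal of 62686 against 44139, and 7 of 9 macrophage markers were higher, with sums over the list of 2757 against 1814. B and plasma cells, which also carry much ER, had sums of 1547 against 1485, with 2 of 3 compared markers higher, and Sdc1, a surface proteoglycan of plasma cells and hepatocytes, gave 1231 of each sum. The pancreatic acinar list summed to 406 against 335, with 4 of 4 compared markers higher, the neutrophil list to 12103 against 13039 (3 of 7 higher) and the endothelial list to 1552 against 1643 (7 of 9 higher). No marker was listed at 0, and the part of these differences in the lower ER genes was not tested.

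The tumour comparison asked whether carcinomas that arose without the telomerase RNA differed from those with it. None of the 33 genes differed past the threshold. All 33 passed the filter on dim genes and entered the limma fit over 11980 genes, and 0 passed the threshold of 0.05 on the adjusted p (Benjamini-Hochberg over all genes), the smallest being 0.953. Over all genes 1 passed (0.00835%), S100a8, a neutrophil gene. At an unadjusted p under 0.05 the count was 0 of 33 genes, and 604 of 11980 (5.04%) over all genes. The median log2 difference, mTERC- minus mTERC+, was 0.09 over the 33 genes and 0.02 over all genes tested, and 21 of the 33 had a higher mean in mTERC- tumours, as did 51.4% of all genes. The groups did not overlap for 4 genes, where 10.1% of all genes did not, namely Sec61b, Atf4 and Trib3, higher in mTERC- tumours (5.75% of all genes were), and Pdia4, lower (4.39% of all). A p that misses the threshold does not show equal levels, so the 95% interval of the limma fit is given for the main genes.

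Sec61b had the smallest unadjusted p of the 33. Its signal was 2536, 3275 and 2469 in mTERC+ tumours 1, 2 and 3 and 4362, 5405 and 3535.5 in mTERC- tumours 1, 2 and 3. All 3 mTERC- tumours were above all mTERC+ tumours. The log2 difference was 0.67 (SE 0.32, interval -0.01 to 1.35, adjusted p = 0.953 in limma). Of the other 7 genes of degradation and translocation, 6 had a higher mean in mTERC- tumours, Derl2 a lower one, and the median of the group was 0.18. These sides are those of the brightest probe sets. With the mean of probe sets Edem1, Sel1l and Derl1 were lower in mTERC- tumours and Derl2 higher. The dimmer Derl1 probe sets had -0.30, -0.32 and -0.24, while the second Herpud1 probe set had 0.38. Herpud1 had 2424.5, 1804.5 and 2810.2 in mTERC+ and 4625, 2629 and 2414 in mTERC- tumours. Tumour 1 of the mTERC- group stood highest and the groups overlapped, with a log2 difference of 0.41 (interval -0.33 to 1.16). Derl3 varied most of the 33 genes, with a 6.49-fold range over the 6 tumours. Its signal was 141, 153 and 11.1 in mTERC+ and 16.1, 248 and 148 in mTERC- tumours. Each group thus held 1 tumour with a signal under the array median, and the interval ran from -1.19 to 1.73. Derl1, Derl2, Edem1, Syvn1 and Sel1l had log2 differences between -0.26 and 0.31. For Syvn1 the probe set used in the adenovirus pair is the other one, and in the tumours it had -0.18 against 0.31 for the brightest.

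Hspa5 was bright in every tumour, at 12126.5, 10208 and 7241 in mTERC+ and 10752.5, 15338 and 7355 in mTERC- tumours. Tumour 3 was the lowest in both groups, and the highest value was on mTERC- tumour 2, the array with the high Gapdh ratio. The log2 difference was 0.15 (SE 0.35, interval -0.60 to 0.89), and without mTERC- tumour 2 it was -0.12. Calr had 9210.3, 6029 and 4805 in mTERC+ and 5991, 4476 and 4942 in mTERC- tumours (log2 difference -0.33, interval -1.05 to 0.38). Only mTERC+ tumour 1 stood above the others, and the groups overlapped. Sdf2l1 had 494, 702 and 509.8 in mTERC+ and 1345, 989 and 487 in mTERC- tumours. Tumours 1 and 2 of the mTERC- group were above all mTERC+ tumours and tumour 3 was below them (log2 difference 0.60, interval -0.24 to 1.44). Dnajb9 had 106, 294 and 336 against 321, 516 and 293, with mTERC+ tumour 1 standing low (0.64, interval -0.28 to 1.56). Manf had 3382, 2633 and 1749 in mTERC+ and 4440.5, 3503 and 1829 in mTERC- tumours, with tumour 3 again the lowest of each group. The remaining chaperones, Hsp90b1, Canx, Hyou1, Dnajb11 and Dnajc3, had log2 differences from -0.26 to 0.35 by their brightest probe sets. On that basis the median of the role was 0.03. A dimmer Hyou1 probe set had 10.4, 218 and 26.4 in mTERC+ and 192, 189 and 125 in mTERC- tumours (1.21), with overlap. Dimmer Canx probe sets had -0.41 and 0.38.

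Pdia4 was lower in mTERC- tumours, at 339.6, 261 and 248 against 479.9, 388 and 381 in mTERC+ tumours, with no overlap. The log2 difference was -0.52 (SE 0.35, interval -1.26 to 0.22, adjusted p = 0.953 in limma). A dimmer Pdia4 probe set had the opposite side, with a mean of 112.5 in mTERC- and 37.3 in mTERC+ tumours (0.99), so the gene's side rests on the choice of probe set. Pdia6 had 2024, 1846 and 3371 in mTERC- and 3085, 2464.5 and 4001 in mTERC+ tumours (-0.42, interval -1.16 to 0.32). Creld2 had 2498.5, 3428 and 1929 against 2287, 1826 and 1819.9 (0.37, interval -0.34 to 1.08). P4hb and Pdia3 had 0.10 and 0.06, with intervals of -0.62 to 0.81 and -0.60 to 0.71. The isomerases had no common side, with 3 of 5 higher and a median of 0.06.

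**Figure D3:**
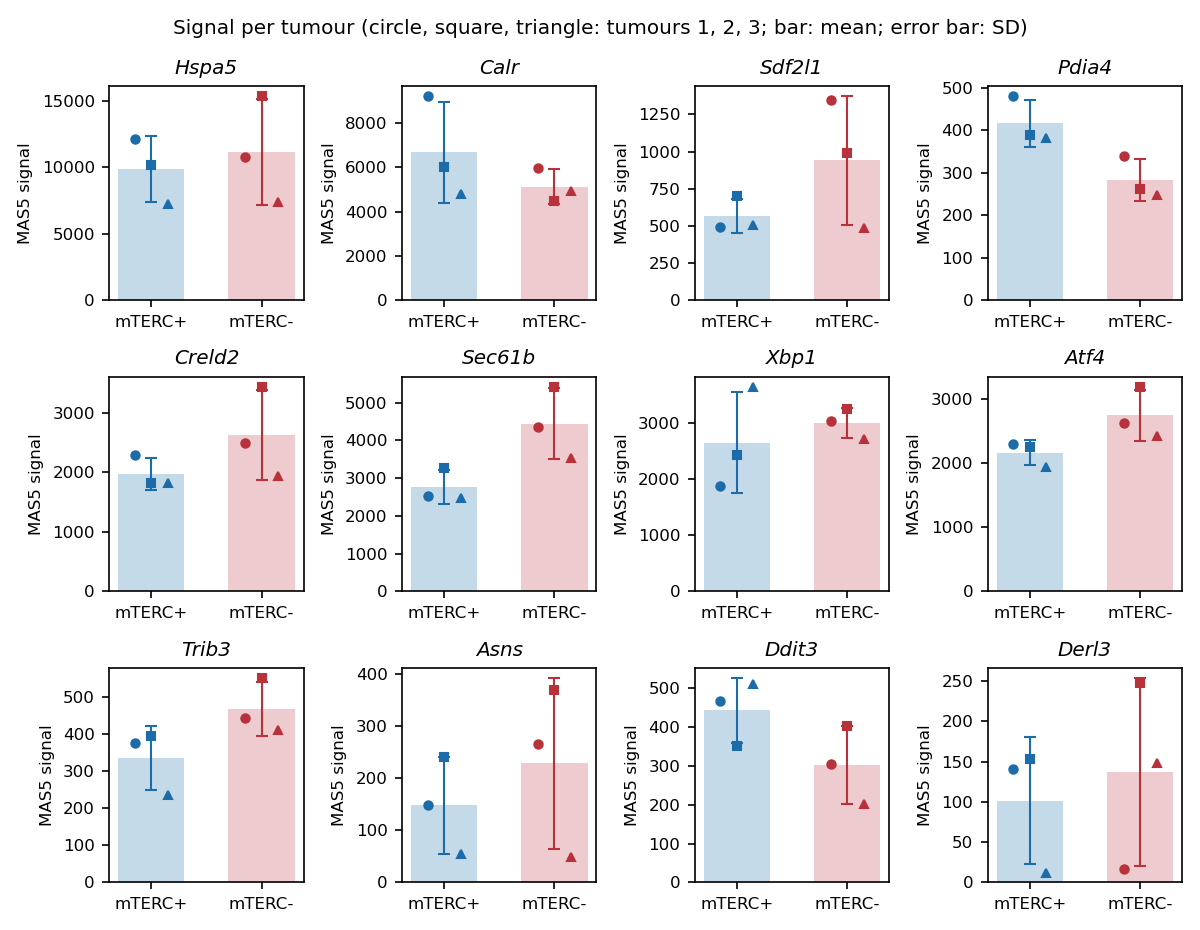
MAS5 signal of 12 of the genes in each tumour (circle, square and triangle for tumours 1, 2 and 3), with bars for the group mean and error bars for the SD (n = 3 each). The groups do not overlap for Pdia4, Sec61b, Atf4 and Trib3, and they overlap for the other 8 genes shown.

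Of the sensors and transcription factors, Atf4 had 2298, 2247 and 1934 in mTERC+ and 2622, 3182 and 2421 in mTERC- tumours. The groups did not overlap, and the log2 difference was 0.33 (SE 0.31, interval -0.33 to 1.00, adjusted p = 0.967 in limma). Its second probe set, less bright, had -0.16. Xbp1 had 1879.7, 2429 and 3638 in mTERC+ and 3033, 3243.5 and 2717.5 in mTERC- tumours. The mTERC+ tumours spanned the mTERC- ones, and the difference was 0.23 (interval -0.49 to 0.94). Ern1, Eif2ak3 and Atf6 had 0.26, -0.02 and -0.26.

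Targets of ATF4 did not share a side in the tumours. Trib3 had 376, 394 and 236 in mTERC+ and 443, 550.0 and 411 in mTERC- tumours, without overlap (log2 difference 0.47, SE 0.36, interval -0.29 to 1.23), and a second probe set had 0.66. Ddit3 had 466, 349.8 and 510.2 in mTERC+ and 304, 402 and 201 in mTERC- tumours, with overlap through tumour 2 of each group (-0.54, interval -1.33 to 0.25). Trib3 and Ddit3, both on the CHOP arm, thus had means on opposite sides. Asns had 149, 240.3 and 54.9 in mTERC+ and 266, 370.1 and 49.6 in mTERC- tumours. Tumour 3 was lowest in each group, the range over the 6 tumours was 4.93-fold, and the difference was 0.40 (interval -0.83 to 1.63). Its second probe set had -0.89. Chac1 had 0.01 (interval -0.79 to 0.81) and Ppp1r15a -0.33 (interval -1.15 to 0.49).

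**Figure D4:**
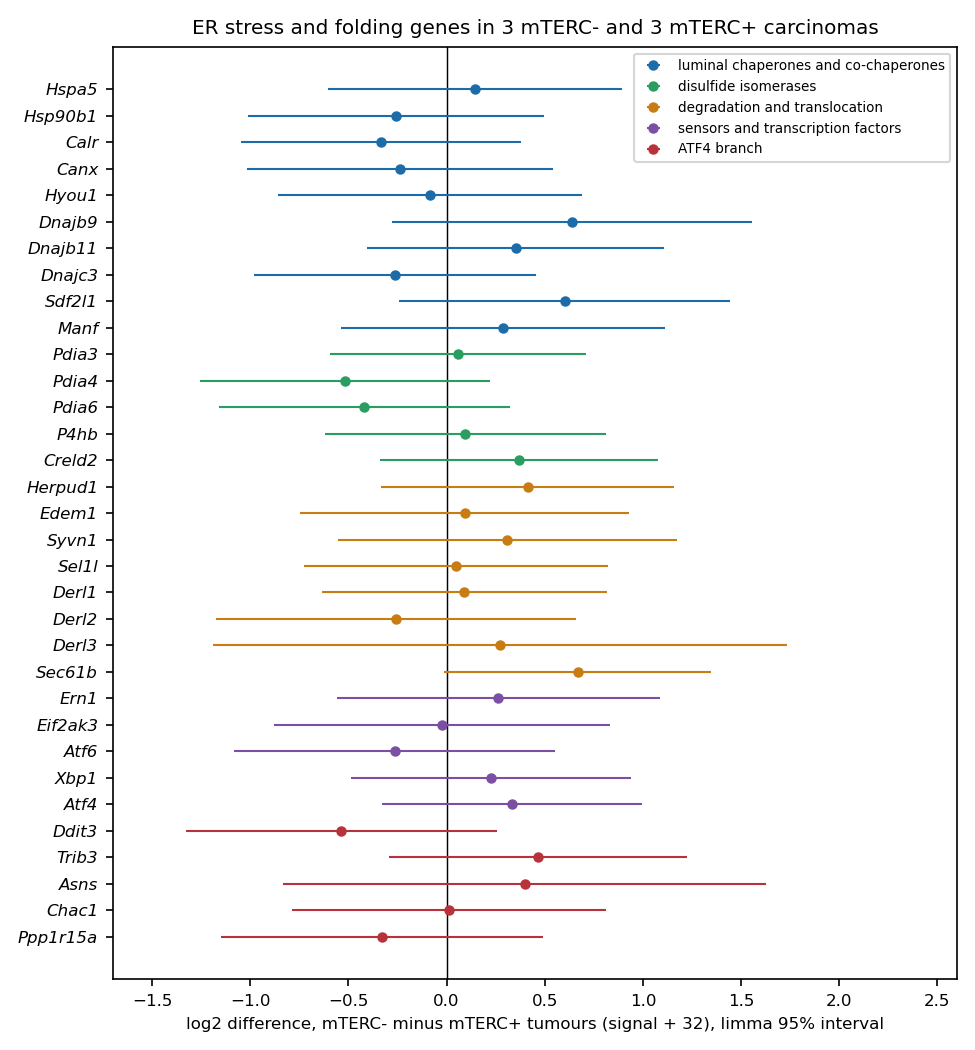
Log2 difference between mTERC- and mTERC+ tumours for each of the 33 genes (points, coloured by role) with the 95% interval of the limma fit (lines). Every interval spans 0, the interval of Sec61b runs from -0.01 to 1.35, and that of Derl3 is the widest.

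The spread of the genes over single tumours was also described. Of the 33 genes, 11 were highest on mTERC- tumour 2, where 27.2% of all genes tested were, and 10 were lowest on mTERC+ tumour 3, where 17.1% of all genes were. None of the 33 (0 genes) was highest on mTERC+ tumour 2, where 14.2% of all genes were. The median deviation of the 33 genes from their own means was 0.06, -0.03 and -0.10 in mTERC+ tumours 1, 2 and 3 and 0.11, 0.17 and -0.12 in mTERC- tumours 1, 2 and 3. Chaperones had medians of -0.23 in mTERC+ tumour 3 and -0.28 in mTERC- tumour 3. The Atf4 branch had 0.30 in mTERC+ tumour 1, 0.32 in mTERC- tumour 2 and -0.36 in mTERC- tumour 3. The median SD within groups was 0.39 over the 33 genes and 0.53 over all genes. Other ER genes were alike in this, with 0.42 over all of them, 0.38 for N-glycosylation and 0.36 for translocation, and hepatocyte markers had 0.37.

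Of the 137 other ER genes tested in the tumours, 0 passed the threshold in either direction (adjusted p at least 0.953 in limma). An unadjusted p under 0.05 was found for 9 (6.57%), where 5.04% of all genes had one. The mean in mTERC- tumours was higher for 65 and lower for 72. Without overlap of the groups, 13 were higher and 6 lower in mTERC- tumours, where 5.75% and 4.39% of all genes were. By list, 15 of 29 genes of folding and oxidation had a higher mean, as did 8 of 18 of N-glycosylation, 10 of 19 of translocation, 10 of 23 of degradation, 6 of 17 regulators and 16 of 31 ATF4 targets. The 4 with the smallest p were Cebpb, a partner of ATF4, Dnajc10, an ER reductase, Rcn2, a calcium-binding ER protein, and Creb3l2, an ER-tethered transcription factor. Cebpb had 1038, 1820 and 1009 in mTERC- and 692, 630.1 and 574 in mTERC+ tumours, with no overlap (log2 difference 0.94, SE 0.35, adjusted p = 0.953 in limma). Dnajc10 had 0.92, Rcn2 1.23 and Creb3l2 -1.06, none past the threshold.

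Markers of immune cells lay on different sides in the tumour groups. All 7 tested neutrophil markers had a higher mean in mTERC- tumours, with a summed signal of 30180 to 55403 against 20454.5 to 30347, most of it from Lcn2, which hepatocytes also make. All 10 macrophage markers had a lower mean, with sums of 11519 to 18558 against 12230 to 53001. Of B and plasma cell markers 1 of 5 tested had a higher mean, with sums of 1636 to 2173 against 1871 to 4498. Hepatocyte markers had 1 of 9 higher (160432 to 241036 against 189534 to 254501), endothelial markers 1 of 10 (1046 to 1889 against 1831 to 2609) and pancreatic acinar markers 1 of 3 tested (1204 to 1922 against 1570.2 to 2381). No marker was listed at 0, and the part of these cells in the ER genes was not tested.

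Side by side, the 2 comparisons share no sample. Of the 33 genes, 15 were higher by mean in mTERC- tumours but lower in the TRF2DBDM pool, 8 were lower in both, 6 higher in both, and 4 lower in mTERC- tumours and higher in the pool. Over the 7346 genes in both comparisons the same counts were 1786, 1784, 1808 and 1961. Herpud1, Syvn1 and Ern1 were counted by unlike probe sets in the 2 comparisons. By the probe set used in the pair, Syvn1 had -0.18 in the tumours and was then lower in both. Herpud1 and Ern1 kept their side in the tumours by that rule (0.38 and 0.25). Sdf2l1 had 0.60 in the tumours and -1.44 in the pair, Creld2 0.37 and -1.17, and Manf 0.29 and -1.20. Pdia4 was lower in both by its brightest probe set, at -0.52 and -1.21. Its dimmer probe set had 0.99 in the tumours and -0.13 in the pair. The tumour values did not pass the threshold, and the pair had no replicate.

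**Figure D5:**
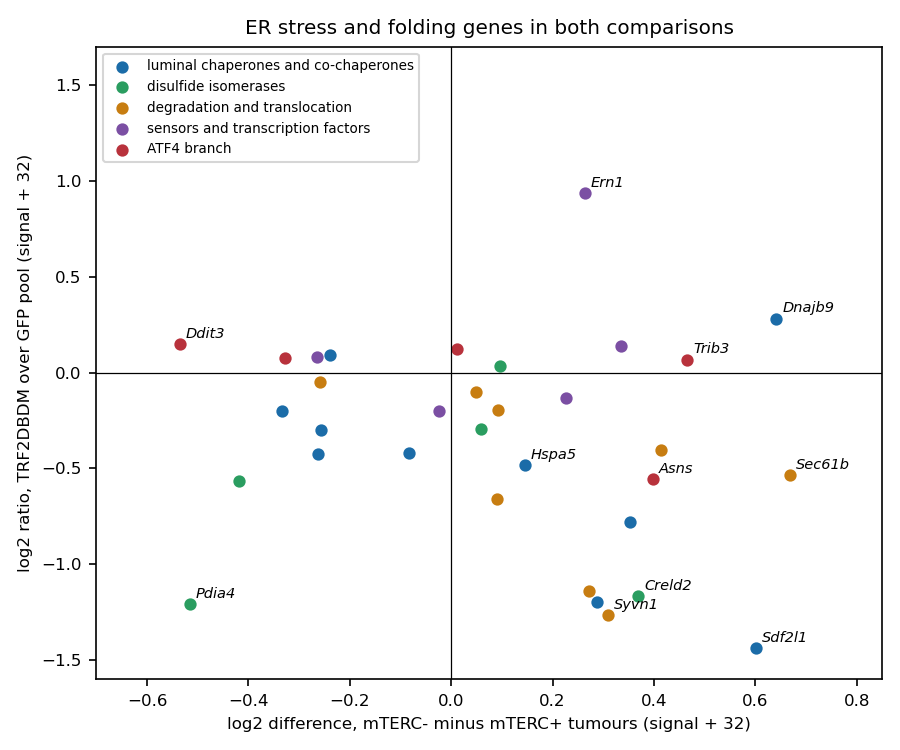
Log2 difference between mTERC- and mTERC+ tumours (horizontal) and log2 ratio of the TRF2DBDM over the GFP pool (vertical) for each of the 33 genes, coloured by role, with some genes named. Most points lie under the horizontal line, at 23 of 33, and to the right of the vertical line, at 21 of 33. Each gene is shown by its brightest probe set in each comparison, and these differ for Herpud1, Syvn1 and Ern1.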

How the data were processed

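Total RNA of liver and tumours, 6 microg per array, was biotin-labelled, per the labels, and hybridised to Affymetrix arrays of 2 designs. MAS5, named in the submitters' processing notes, made the deposited values, which are intensity (not logged). Its version is not given in the sources used here. The mean signal without the lowest and highest 2% was 150 on every tumour array. It was not computed for the adenovirus arrays, and the deposited scale was kept for both sets. Only probe sets that the platform annotation gives a single symbol were used (34958 on the tumour arrays, 20393 on the adenovirus arrays), with symbols updated through the gene ID where the RefSeq table held it (34754 and 20364). Each gene was represented by its brightest probe set on its own array, which was the same on both for 30 of the 33 genes. Levels are log2(signal + 32).

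In the tumour fit, a gene entered if its mean level reached the probe set median (11980 of 18194). The fit was limma 3.58.1 (R 4.3.3) using a variance trend, two-sided tests and Benjamini-Hochberg adjustment over all genes tested. Whether tumours of a group came from separate mice is given only by their names and the design, so p-values measure the spread between these tumours. An array has no count behind a value, and the number of arrays limits the precision. The pair of pooled arrays was described by ratios with no test, a ratio of 2 being counted, for genes that reached their array's median in either pool (7789 of 12394). The code was tested on simulated data. Named were all 33 genes, from the other ER genes the 4 with the smallest p and the 4 highest and lowest ratios, and markers with the highest levels. Probe sets beside the brightest were also given, chosen after values were seen. The members and lists were chosen with earlier results of these data known. Alternatives were other scalings, pseudocounts (1, and 4 times 32), filters (none and percentile 75), the mean of probe sets, no variance trend, array weights, a block for the low 18S control and each tumour left out. Promoter windows are those of RefSeq (GRCm38.p6), and motifs were chosen from textbook knowledge.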

Additional observations from a re-analysis of the deposited data

How the results depend on the processing

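In the tumours 0 of the 33 genes passed in limma under every alternative run, with the smallest adjusted p between 0.745 (without mTERC- tumour 1) and 1.00 (18S block). At an unadjusted p under 0.05 the count was at most 2. The median log2 difference of the 33 genes lay between 0.03 and 0.22. The count of genes whose groups do not overlap was 4, against 5 with median centring, where 9.93% of all genes did not overlap. With the mean of probe sets it was 1, where 10.0% of all genes did not overlap. With a tumour left out it was 6 to 10, the 10 without mTERC- tumour 3 (30.3%, against 20.6% of all genes there), but non-overlap is then commoner, at 18.2% to 23.2% of all genes, and 6 of 33 (18.2%) is no more than that background. Over all genes the count past the threshold was 1, against 0 with median centring, a pseudocount of 1, the filter at percentile 75, the mean of probe sets, no variance trend, the 18S block or, added after the data were seen, probe sets on both arrays only, and it lay between 0 and 6 with a tumour left out. The 18S block leaves mTERC- tumour 1 alone against the mTERC+ group. No paired analysis was possible because the labels give the tumours no shared numbers and the adenovirus groups have 1 array each.

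Small differences that never passed changed side. With quantile normalization Chac1 had -0.068, and with median centring Pdia3, Sel1l and Chac1 had -0.00076, -0.011 and -0.047. With the mean of probe sets Hyou1 had 0.59, Pdia4 0.24, Edem1 -0.14, Sel1l -0.23, Derl1 -0.19, Derl2 0.18 and Asns -0.25. With array weights Hspa5 had -0.055, Edem1 -0.0100, Derl3 -0.031 and Asns -0.032. With the 18S block Canx had 0.0064, Hyou1 0.092, Pdia3 -0.051, Syvn1 -0.17, Derl2 0.42, Derl3 -1.21, Ern1 -0.15 and Chac1 -0.13. With probe sets on both arrays only Syvn1 had -0.18. With a tumour left out the ranges were -0.25 to 0.24 for Eif2ak3, -0.20 to 0.24 for Sel1l, -0.18 to 0.17 for Chac1, -0.14 to 0.37 for P4hb, -0.26 to 0.40 for Edem1, -0.17 to 0.23 for Derl1, -0.12 to 0.41 for Hspa5, -0.44 to 0.087 for Canx, -0.60 to 0.16 for Derl2, -0.41 to 1.01 for Derl3, -0.058 to 1.09 for Asns, -0.21 to 0.13 for Hyou1 and -0.063 to 0.12 for Pdia3. Beyond what the settings themselves leave out, the cause was not tested.

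In the adenovirus pair the count at least 2-fold lower was 6, against 3 with the pseudocount 4 times as large, where the share of all genes was 1.03% in place of 2.90%. It was 5 with the filter at percentile 75 (without Derl3) and, added after the data were seen, with the probe sets of the tumour comparison (without Syvn1). The count at least 2-fold higher was 0, against 1 (Ern1) with a pseudocount of 1. The median of the 33 genes lay between -0.41 and -0.20.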
